A study of Homo sapiens with 6 samples.

Results

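The Wnt and beta-catenin genes described here are CTNNB1, TCF7L2, TCF7, AXIN2, LGR5, ASCL2, NKD1, RNF43, ZNRF3 and MYC, 10 of the 19871 gene symbols and 81 of the 92866 mRNA transcripts in the deposited tables. They were chosen by symbol, as the core transducers and the standard target genes of this pathway. The rule used no measured value, but earlier results of these data were known when it was made. LncRNA-sequencing, a strand-specific sequencing of mRNAs and noncoding RNAs together, was done in HCT116, a human colorectal cancer cell line. The 3 groups of 2 libraries each were a negative control (NC), cells given a GAS5 plasmid (GAS5) and cells given YAP-specific siRNA (siYAP), and which of the YAP siRNAs listed by the study was used here, and what NC cells received, were not stated. GAS5 is a long noncoding RNA, and YAP is the transcriptional co-activator at the end of the Hippo pathway. The labels enter every group, GAS5 included, in an siRNA field, although the treatment note names a plasmid for GAS5. Each table column is the authors' mean over a group, so no value below has an SD or a replicate check, and no test was possible.

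In canonical Wnt signalling, a destruction complex built on APC and axin marks beta-catenin for degradation until Wnt ligands bind Frizzled and LRP receptors. Beta-catenin then enters the nucleus, binds factors of the TCF/LEF family and switches on target genes, several of which are feedback inhibitors. In the intestine this pathway maintains the stem cells at the crypt base, and most colorectal cancers carry a mutation that keeps it on. HCT116 cells carry an activating mutation in CTNNB1 itself.

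Summed mean counts were 27206123 in NC, 25521577 in GAS5 and 26298036 in siYAP. YAP1, the target of the siRNA, had mean counts of 3480 in NC, 2679 in GAS5 and 1444 in siYAP, a log2 ratio of -1.18 in siYAP against NC. The YAP target genes CTGF and CYR61 were not lower there, with log2 ratios of 0.16 (95% counting interval -0.16 to 0.49) and 0.29 (0.17 to 0.41) in siYAP. In GAS5 they were at 0.72 and 1.09, and the target ANKRD1 was at 1.88 with a mean count of 18.5. GAS5 has no row in these mRNA tables and was not analysed here. Of 8 epithelial markers, 6 were at 1 FPKM (fragments scaled to transcript length and library size) or more in every group, while VIL1 and CEACAM5 were at or near 0. Among 10 markers of other cell types, ACTA2 and COL1A1 were above 1 FPKM in every group, and the blood cell marker PTPRC was at 0 in all. CD14, a further blood cell marker, and ALB stayed below 1 FPKM in every group but were past 2-fold higher in GAS5 than in NC. Their log2 ratios were 2.72 and 2.47, with mean counts of 37.5 and 16.0 in GAS5. VWF was at -0.05 there. The summed level of those 10 markers was 7.85 FPKM in NC, against 13.3 in GAS5 and 13.3 in siYAP. Most of it was ACTA2, at 5.33 FPKM in NC, 8.37 in GAS5 and 9.98 in siYAP, and COL1A1, at 2.20, 3.33 and 2.96.

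Exons that separate transcripts of RNF43 and TCF7L2 are shown first, because the largest differences found among these genes lie between transcripts of one gene. They are read 5′ to 3′ on the coding strand from GENCODE 29 transcripts on GRCh38. The deposited tables hold no coordinates and their build is not given, so the exons were matched by Ensembl identifier. The RNF43 exon, at chr17:58370911-58371033 on the minus strand, is 123 bases long and absent from ENST00000583753. The first TCF7L2 exon, at chr10:112964556-112964624 on the plus strand, is present in ENST00000355995 and absent from ENST00000369397. The second, at chr10:113158667-113158717, is present in ENST00000355995 and absent from ENST00000543371. The last pair of TCF7L2 exons, at chr10:113159920-113159992 and chr10:113160619-113160691, have 73 bases each, and ENST00000355995 holds the upstream one and ENST00000543371 the downstream one. Capitals in this pair mark the 47 of 73 bases (64.4%) that are the same at the same position, and all other sequence is in lower case.
RNF43 123-base exon: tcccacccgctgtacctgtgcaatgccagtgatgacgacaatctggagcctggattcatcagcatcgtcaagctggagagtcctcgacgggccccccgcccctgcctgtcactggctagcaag
TCF7L2 69-base exon: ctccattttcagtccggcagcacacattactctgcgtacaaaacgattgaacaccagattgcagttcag
TCF7L2 51-base exon: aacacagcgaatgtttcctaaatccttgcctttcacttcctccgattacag
TCF7L2 upstream 73-base exon: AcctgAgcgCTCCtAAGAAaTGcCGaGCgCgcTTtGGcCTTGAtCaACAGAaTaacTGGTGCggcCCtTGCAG
TCF7L2 downstream 73-base exon: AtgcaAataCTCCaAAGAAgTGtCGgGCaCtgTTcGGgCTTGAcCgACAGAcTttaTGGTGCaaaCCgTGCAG
The first 3 exons keep the reading frame when skipped, as their lengths are multiples of 3. Alternative exons near the 3′ end of TCF7L2 are known to change the C-terminal tail of the protein.

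Levels between genes were compared per length, as FPKM summed over the transcripts of a gene. The order in NC was MYC, CTNNB1, TCF7L2, RNF43, TCF7, ZNRF3, AXIN2 and NKD1, from 213 down to 2.12 FPKM. LGR5 and ASCL2 came last. The order was the same in siYAP, and in GAS5 only ZNRF3 and AXIN2 changed places, at 4.84 and 4.98 FPKM. With 1 mean per group, whether neighbours in this order differ beyond the spread of libraries could not be tested. The span from NKD1 to MYC is about the same in the 3 groups in the plot of levels.

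**Figure D1:**
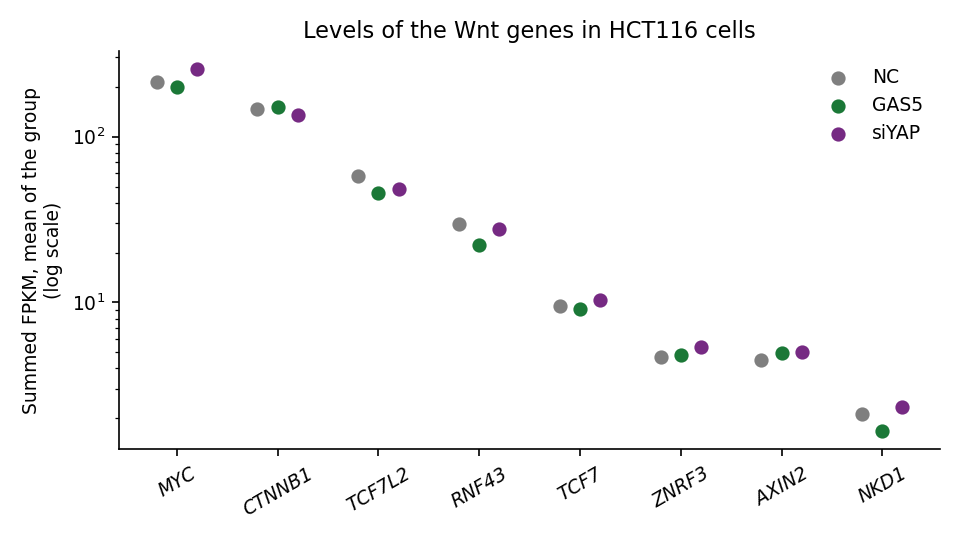
FPKM summed over the transcripts of each gene (log scale) in NC, GAS5 and siYAP, each point being the authors' mean of a group with no error bar available. MYC and CTNNB1 lie above 100 FPKM in every group and NKD1 lies lowest. LGR5 and ASCL2, at or near 0, are left out.

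LGR5, a receptor for R-spondins and the classic marker of intestinal stem cells, lies on chromosome 12 (71439770 to 71586310, plus strand). It had a mean count of 0.5 in NC and 0 in GAS5 and siYAP. ASCL2, a transcription factor of the same stem cells, lies on chromosome 11 (2268495 to 2270952, minus strand) and had 0 counts in all 3 groups. A count of 0 over a group allows up to 3 counts, or 0.0551 CPM (counts scaled to library size) in NC, 0.0588 CPM in GAS5 and 0.0570 CPM in siYAP. Neither gene passed the filter on low counts, and no ratio is given for them. These limits cover counting error only, and they do not apply to LGR5 in NC, where the count was above 0.

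The other 8 members were compared as log2 ratios of gene sums, scaled by TMM (trimmed mean of M values) with a prior count of 2. In GAS5 against NC, 0 of the 8 were past 2-fold, where 3.09% of all 13379 genes tested were. None passed a log2 ratio of 0.5 either, a lower threshold that 11.6% of all genes passed. In siYAP against NC, 0 of the 8 were past 2-fold, against 2.28% of all 13308 genes, and 0 passed 0.5, against 14.7%. The median of the 8 was -0.05 in GAS5, with a range from -0.36 to 0.16, and 0.14 in siYAP, with a range from -0.22 to 0.33. For all genes tested the median was 0.00 in both. With 8 genes, counts of 0 are near what such background shares give. Both comparisons use the same NC means.

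The 95% intervals given with these ratios are exact binomial (Clopper-Pearson) intervals on the counts of the 2 libraries together, and they cover counting error only. They left out 0 for 6 of the 8 members in GAS5 and for 8 of 8 in siYAP. The same was so for 63.2% and 69.1% of all genes tested, so such an interval separates few genes from the rest. As a wider yardstick, the 5th to 95th percentile of the 11925 genes with at least 50 mean counts in NC ran from -0.44 to 0.43 in GAS5 and from -0.57 to 0.48 in siYAP. All 8 members lay inside these ranges in both comparisons.

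**Figure D2:**
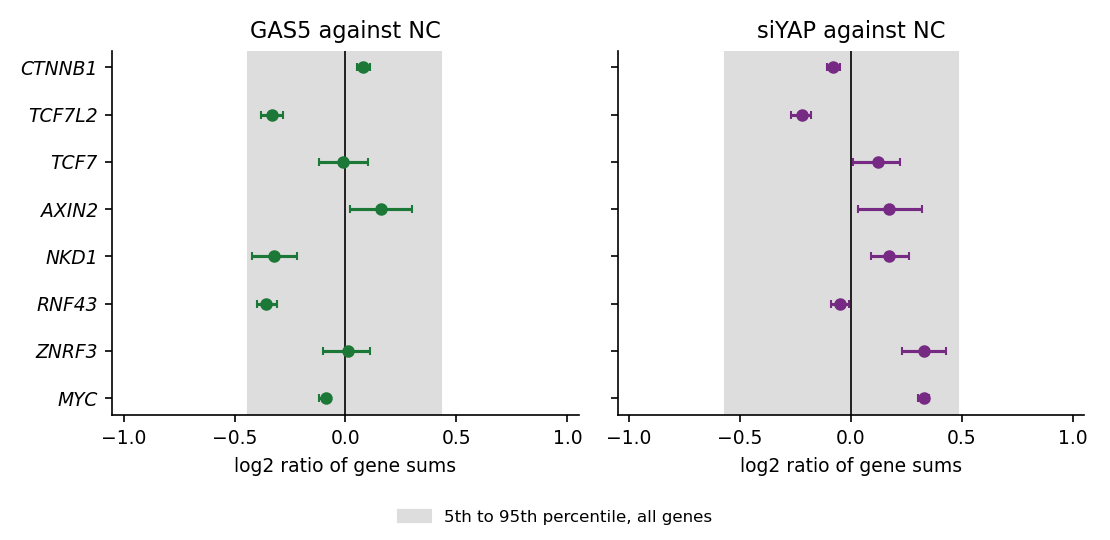
Log2 ratio of gene sums against NC for the 8 members that passed the low-count filter, in GAS5 (left) and siYAP (right). Bars are 95% counting intervals, which do not cover the spread between libraries, and the grey band runs from the 5th to the 95th percentile of 11925 genes. Every point lies in the band, and TCF7L2, NKD1 and RNF43 lie lowest in GAS5 while ZNRF3 and MYC lie highest in siYAP.

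CTNNB1 encodes beta-catenin and lies on chromosome 3 (41194741 to 41260096, plus strand). Its mean counts were 11872 in NC, against 11554 in GAS5 and 10582 in siYAP. The TMM-scaled log2 ratio was 0.08 in GAS5 (95% counting interval 0.05 to 0.11) and -0.08 in siYAP (-0.11 to -0.05). The 4 transcripts that carry most of its counts have the same coding length of 2343 bases, and their shares hardly moved. ENST00000405570 held 45.5% of the counts in NC, against 45.0% in GAS5 and 44.3% in siYAP. Among these 4 transcripts the log2 ratio ranged from 0.05 to 0.09 in GAS5 and from -0.22 to 0.11 in siYAP.

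TCF7L2, the main TCF factor of the intestinal epithelium, lies on chromosome 10 (112950250 to 113167678, plus strand). It had mean counts of 4364 in NC, 3200 in GAS5 and 3522 in siYAP. Its level was thus highest in NC, with a log2 ratio of -0.33 in GAS5 (-0.38 to -0.28) and -0.22 in siYAP (-0.27 to -0.18). TCF7, a second TCF factor and itself a Wnt target, lies on chromosome 5 (134114711 to 134151865, plus strand). Its mean counts were 732 in NC, 670 in GAS5 and 748 in siYAP, and the log2 ratio was -0.01 in GAS5 (-0.12 to 0.10) and 0.12 in siYAP (0.01 to 0.22). A difference in TCF7 was not detectable in GAS5 at this depth.

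The feedback inhibitors differed among themselves in size and direction. RNF43 and ZNRF3 are related membrane ubiquitin ligases that remove Frizzled receptors from the cell surface. RNF43 lies on chromosome 17 (58352500 to 58417595, minus strand) and had mean counts of 4271 in NC, against 3072 in GAS5 and 3889 in siYAP. The log2 ratio of RNF43 was -0.36 in GAS5 (-0.40 to -0.31) and -0.05 in siYAP (-0.09 to -0.01). ZNRF3, on chromosome 22 (28883592 to 29057487, plus strand), had mean counts of 732 in NC, 676 in GAS5 and 864 in siYAP. Its log2 ratio was 0.01 in GAS5 (-0.10 to 0.11), where no difference was detectable, and 0.33 in siYAP (0.23 to 0.43). The lower RNF43 value in GAS5 therefore had no counterpart in ZNRF3, and the difference between the ligases was not tested.

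NKD1, a cytoplasmic antagonist that binds Dishevelled, lies on chromosome 16 (50548330 to 50649249, plus strand). Its mean counts were 1008 in NC, against 744 in GAS5 and 1072 in siYAP. The log2 ratio of NKD1 was -0.32 in GAS5 (-0.42 to -0.22) and 0.17 in siYAP (0.09 to 0.26). AXIN2, an axin of the destruction complex whose transcription is the usual readout of Wnt activity, lies on chromosome 17 (65528563 to 65561647, minus strand). Mean counts of AXIN2 were 395 in NC, against 407 in GAS5 and 420 in siYAP. The log2 ratio was 0.16 in GAS5 (0.02 to 0.30) and 0.17 in siYAP (0.03 to 0.32). The sign of both AXIN2 values rests on a single transcript assembled from the reads, TCONS_00063801. Without assembled transcripts, the AXIN2 log2 ratio was -0.68 in GAS5 and -0.69 in siYAP.

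MYC, the growth-promoting transcription factor that is the best known beta-catenin target in colon, lies on chromosome 8 (127735434 to 127741434, plus strand). It had mean counts of 10707 in NC, 9245 in GAS5 and 12666 in siYAP. Its level was lowest in GAS5 and highest in siYAP, at log2 ratios of -0.09 (-0.12 to -0.07) and 0.33 (0.30 to 0.35). MYC and ZNRF3 had the highest siYAP ratios of the 8.

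Single transcripts differed far more than the gene sums, among the members as among all genes. In GAS5, 12 of the 44 member transcripts tested were past 2-fold (27.3%), 5 higher and 7 lower, against 20.2% of all 41340 transcripts tested. In siYAP, 14 of 44 were past 2-fold (31.8%), 9 higher and 5 lower, against 20.9% of all 40876. Transcripts that passed the filter only through the group where they are high are among them. With 10 or more mean counts required in all 3 groups, 6 of 36 member transcripts (16.7%) were past 2-fold in GAS5, against 9.62% of all 32882 transcripts left, and 9 of 36 in siYAP, against 10.4%. Transcript counts are estimates that divide shared reads among overlapping transcripts. Part of any such difference may lie in that division, which was not tested and which the counting intervals do not cover.

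Of the members with at least 2 tested transcripts and a gene sum under 0.5 in either direction, 7 in each comparison, 3 in GAS5 and 5 in siYAP had a transcript of at least 50 mean counts past 2-fold. The same held for 2431 of 9332 such genes in GAS5 and 2387 of 8843 in siYAP. Transcripts past 2-fold in both directions were found within TCF7L2 and AXIN2 in GAS5, and within TCF7L2, AXIN2 and RNF43 in siYAP. Among all such genes 4.91% in GAS5 and 5.07% in siYAP showed this. The higher transcripts of TCF7L2 and RNF43 behind these counts were at or near 0 in NC and passed the filter only through the group where they are high. Counting only transcripts with 10 or more mean counts in all 3 groups, a step added after the values were seen, AXIN2 alone was left in both comparisons, where 2.57% of 8365 genes in GAS5 and 2.46% of 7964 in siYAP were. The stacked plot of transcript counts shows these exchanges beside MYC.

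**Figure D3:**
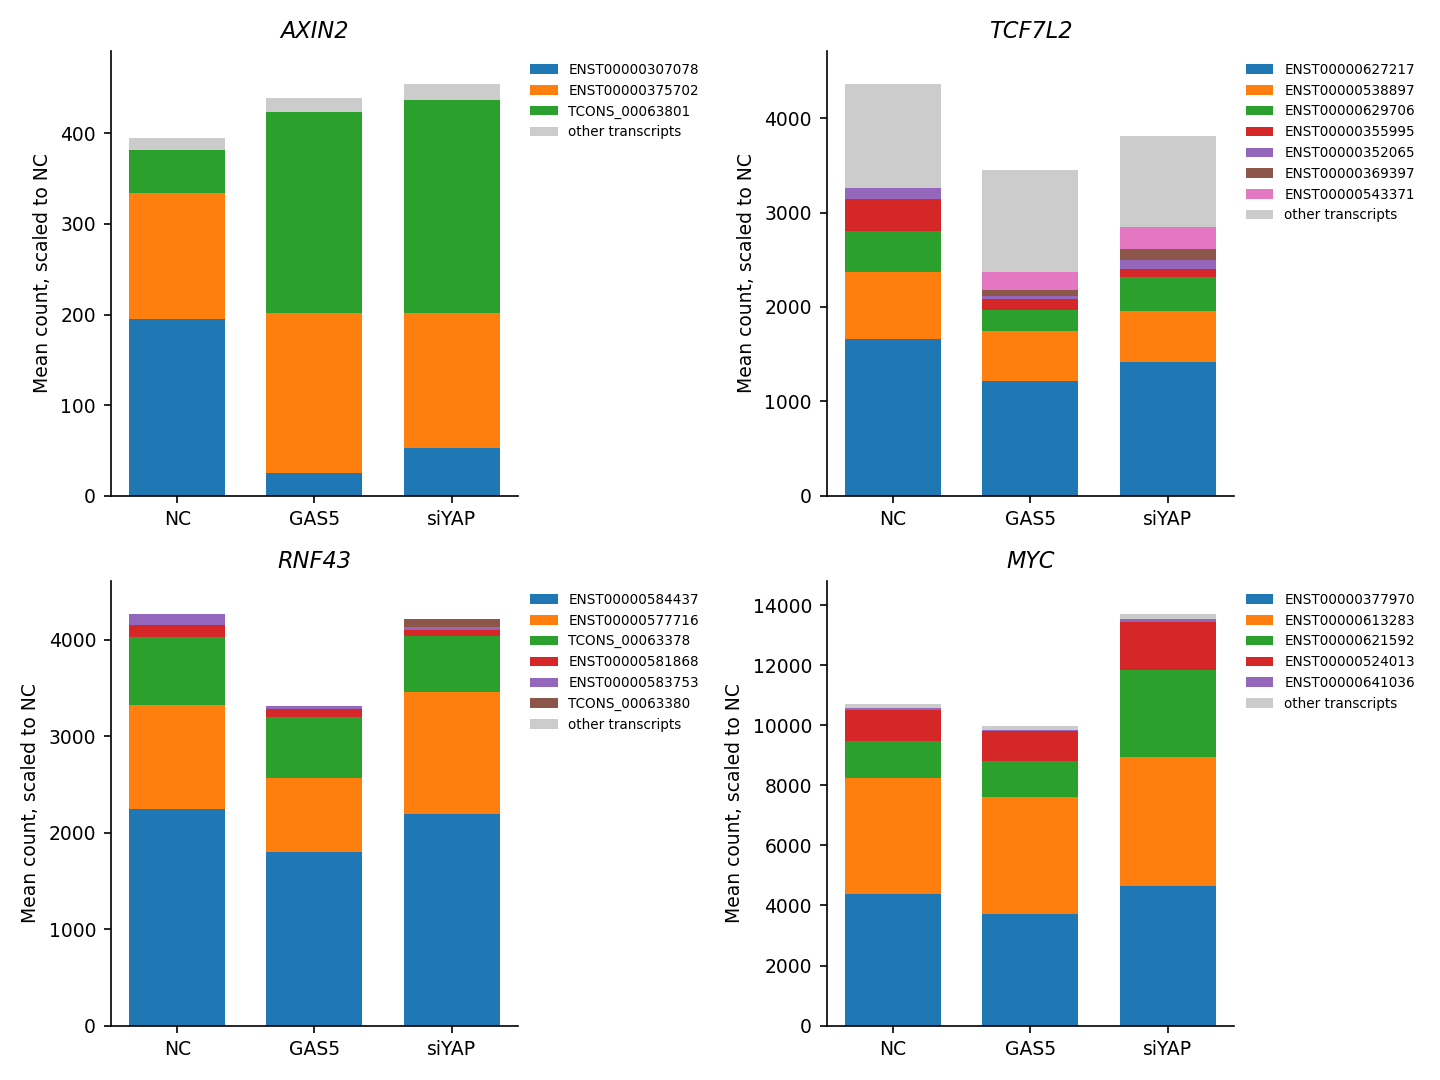
Mean counts of the transcripts of AXIN2, TCF7L2, RNF43 and MYC in NC, GAS5 and siYAP, stacked by transcript, with GAS5 and siYAP scaled to NC by TMM and grey for all other transcripts of the gene. The bars start at 0 and have no error bars, since each is a group mean. ENST00000307078 of AXIN2 shrinks from 195 in NC to 24.6 and 53.0 scaled counts while TCONS_00063801 grows, and ENST00000621592 of MYC is larger in siYAP alone.

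In AXIN2 the transcript ENST00000307078 had mean counts of 195 in NC, 22.8 in GAS5 and 49.0 in siYAP. That is a log2 ratio of -2.89 in GAS5 (-3.45 to -2.53) and -1.84 in siYAP (-2.21 to -1.55). Its share of the AXIN2 counts was 49.3% in NC, against 5.60% in GAS5 and 11.7% in siYAP. The assembled TCONS_00063801 showed the opposite, with mean counts of 47.3 in NC, 206 in GAS5 and 217 in siYAP. Its log2 ratio was 2.18 in GAS5 (1.90 to 2.56) and 2.26 in siYAP (1.98 to 2.64).

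Summed, these AXIN2 transcripts had mean counts of 242 in NC, 229 in GAS5 and 266 in siYAP, a log2 ratio of 0.03 and 0.25. The pair joins a lower and a higher transcript and was chosen after the values were seen. A sum near NC therefore follows in part from that choice. The count per FPKM, which reflects transcript length, was taken from the siYAP values only. It was 1.03 times as large for TCONS_00063801 as for ENST00000307078. The transcripts are thus nearly equal in length by the authors' own values, but the exons of the assembled one are not analysed here. ENST00000375702 stayed between 138 and 164 mean counts in the 3 groups. TCONS_00063801 held 12.0% of all AXIN2 counts in NC, against 50.6% in GAS5 and 51.7% in siYAP.

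In TCF7L2 the exchange ran among Ensembl transcripts. ENST00000355995 had mean counts of 342 in NC, 106 in GAS5 and 82.4 in siYAP, at log2 ratios of -1.57 (-1.81 to -1.36) and -1.91 (-2.19 to -1.69). ENST00000543371 had no count in NC, against 176 in GAS5 and 220 in siYAP. Set against the 3 counts that 0 allows over a group, its ratio was 127-fold in GAS5 and 159-fold in siYAP. That limit covers counting error but not the division of shared reads, so these are not lower bounds. The transcript passed the filter only through the groups where it is high. ENST00000369397, with a mean count of 0.205 in NC, had 60.6 in GAS5 and 107 in siYAP. Both were at or near 0 in NC and present in GAS5 and siYAP, and both comparisons rest on that one NC mean.

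The sum of these 3 TCF7L2 transcripts was 342 mean counts in NC, against 343 in GAS5 and 410 in siYAP, a log2 ratio of 0.11 and 0.37. They were chosen after their values were seen, so a sum near NC follows in part from the choice. ENST00000629706 and ENST00000352065, which were past 2-fold lower in GAS5, are not in this sum. As a share of TCF7L2 counts, ENST00000355995 held 7.83% in NC, 3.31% in GAS5 and 2.34% in siYAP. ENST00000543371 held 0%, 5.51% and 6.26%, and ENST00000369397 held 0.00470%, 1.90% and 3.03%. The exon shares that follow are over nearly all TCF7L2 counts, of which these transcripts are a small part. The share of TCF7L2 counts from transcripts with the 69-base exon was 63.6% in NC, against 61.2% in GAS5 and 61.8% in siYAP. For the 51-base exon the share was 38.5%, 38.4% and 33.9% in NC, GAS5 and siYAP. The upstream 73-base exon had a share of 21.7%, 21.3% and 18.8% in the same groups, and the downstream one 54.3%, 54.4% and 59.3%. Most transcripts held at most 1 of this pair of exons, since only 2 of the 21 TCF7L2 transcripts hold both, with mean counts of 69.2 in NC, against 69.4 in GAS5 and 57.2 in siYAP.

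The other named TCF7L2 transcripts had log2 ratios below 0 in both comparisons. The most abundant, ENST00000627217, had mean counts of 1661 in NC, 1129 in GAS5 and 1307 in siYAP, at log2 ratios of -0.45 and -0.23. ENST00000538897 had 705, 492 and 496 mean counts in NC, GAS5 and siYAP. Past 2-fold in GAS5 were ENST00000629706, with 439 in NC and 201 in GAS5 (log2 ratio -1.01), and ENST00000352065, with 113 and 31.1 (-1.70). In siYAP both had a log2 ratio of -0.28. The gene sum of TCF7L2 was lower with them.

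RNF43 was carried by ENST00000584437, with mean counts of 2249 in NC, 1673 in GAS5 and 2027 in siYAP. ENST00000577716, of the same coding length of 2349 bases, had 1073, 711 and 1165, at log2 ratios of -0.48 in GAS5 and 0.23 in siYAP. The assembled TCONS_00063378 had mean counts of 701 in NC, 581 in GAS5 and 537 in siYAP. All 3 had log2 ratios below 0 in GAS5, where the gene sum of RNF43 was also lower.

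Minor RNF43 transcripts moved further. ENST00000583753, which lacks the 123-base exon, had mean counts of 121 in NC, 28.5 in GAS5 and 35.8 in siYAP, at log2 ratios of -1.91 (-2.42 to -1.56) and -1.59 (-2.03 to -1.25). The share of counts from spanning Ensembl transcripts with this exon was 96.6% in NC, against 98.9% in GAS5 and 98.9% in siYAP. ENST00000581868 had mean counts of 126 in NC, 77.6 in GAS5 and 53.1 in siYAP, a log2 ratio of -0.58 and -1.11. TCONS_00063380 had 0 counts in NC and GAS5 and 71.4 in siYAP, which is 51.5 times the limit that 0 allows for counting error alone. It passed the filter only through siYAP.

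In MYC the higher siYAP value was uneven across transcripts. ENST00000621592 had mean counts of 1220 in NC, 1117 in GAS5 and 2694 in siYAP, a log2 ratio of -0.02 in GAS5 (-0.10 to 0.06) and 1.26 in siYAP (1.19 to 1.33). Its share of MYC counts was 11.4% in NC, against 12.1% in GAS5 and 21.3% in siYAP. ENST00000613283, with the same coding length of 1362 bases, had 3848, 3594 and 3963 mean counts, at log2 ratios of 0.01 and 0.16. ENST00000377970, the most abundant in NC, had 4393 in NC, 3455 in GAS5 and 4280 in siYAP, at -0.24 and 0.08. ENST00000524013 had 1054, 937 and 1463, at -0.06 and 0.59.

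The short single-exon ENST00000641036 had mean counts of 57.2 in NC, 34.2 in GAS5 and 112 in siYAP, at log2 ratios of -0.61 and 1.06. Leaving out ENST00000621592 lowered the siYAP log2 ratio of the MYC sum from 0.33 to 0.16, a choice made after the values were seen. In GAS5 the same step gave -0.10.

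Between the named TCF7 transcripts the share moved from the shorter to the longer coding length. ENST00000395023, with a coding length of 807 bases, had mean counts of 579 in NC, 486 in GAS5 and 482 in siYAP, and held 79.0%, 72.6% and 64.4% of the counts. ENST00000342854, with a coding length of 1152 bases, had 100, 126 and 196, at log2 ratios of 0.42 in GAS5 (0.16 to 0.70) and 1.07 in siYAP (0.83 to 1.33). Its share was 13.7% in NC, against 18.7% in GAS5 and 26.2% in siYAP. Outside the rule for named transcripts, the assembled TCONS_00114188 held 5.89% in GAS5 and 0% in NC and siYAP. Its coding length is not known, and it passed the filter only through GAS5. ENST00000378560, with a coding length of 804 bases, held 4.80% in NC, 1.37% in GAS5 and 5.29% in siYAP. TCF7 is known to produce forms without the beta-catenin binding domain, but which form each transcript encodes was not examined here.

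ZNRF3 was mostly ENST00000544604, with mean counts of 613 in NC, 540 in GAS5 and 769 in siYAP, at log2 ratios of -0.07 and 0.44. ENST00000406323 was not higher in siYAP, with mean counts of 118 in NC and 136 in GAS5 and a log2 ratio of 0.31 in GAS5 and -0.20 in siYAP (-0.48 to 0.08). The share of ENST00000544604 was 83.8% in NC, against 79.8% in GAS5 and 89.0% in siYAP. NKD1 has a single transcript in the tables, so no exchange could be seen in it.

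The rest of the pathway was described with a list of 116 further genes, all of them in the tables and 14 of them at 0 in every group. In GAS5, 87 were tested, 34 above and 53 below 0, with a median log2 ratio of -0.10. None of the 87 was past 2-fold in GAS5, and 9 (10.3%) passed 0.5, 5 higher and 4 lower, close to the 11.6% of all genes. In siYAP, 88 were tested, 62 above and 26 below 0, with a median of 0.11. There 2 were past 2-fold, both lower, and 13 (14.8%) passed 0.5, 9 higher and 4 lower, where 14.7% of all genes did.

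By role, the ligands and their secretion factors had a median of -0.11 in GAS5 and 0.30 in siYAP, with 4 of 16 past 0.5 in siYAP, all higher. The receptors had a median of -0.10 and 0.03, with 1 of 12 (8.33%) past 0.5 in each comparison. The secreted and surface inhibitors had -0.07 and 0.30 over 6 tested genes. Of these, 0 were past 0.5 in GAS5 and 2 (33.3%) in siYAP, 1 in each direction. The destruction complex and cytoplasmic transducers had medians of -0.04 and 0.09, with 0 of 20 past 0.5 in siYAP and 1 of 20 in GAS5. The nuclear factors had medians of -0.14 and 0.04, with 1 of 12 (8.33%) past 0.5 in GAS5 and 2 of 12 (16.7%) in siYAP. The other beta-catenin targets had -0.14 and 0.11. Of their 22 tested genes, 5 (22.7%) passed 0.5 in GAS5, 3 higher and 2 lower. In siYAP 4 of the 22 (18.2%) did, 3 higher and 1 lower. Whether any role differs from all genes was not tested. In each role the median was below 0 in GAS5 and above 0 in siYAP, as in the members, under TMM scaling. The siYAP medians of the receptors and nuclear factors, at 0.03 and 0.04, are too near 0 for their sign to be firm. Scaling by total counts moved the median of all genes in siYAP to -0.04, and medians by role were not computed with it.

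**Figure D4:**
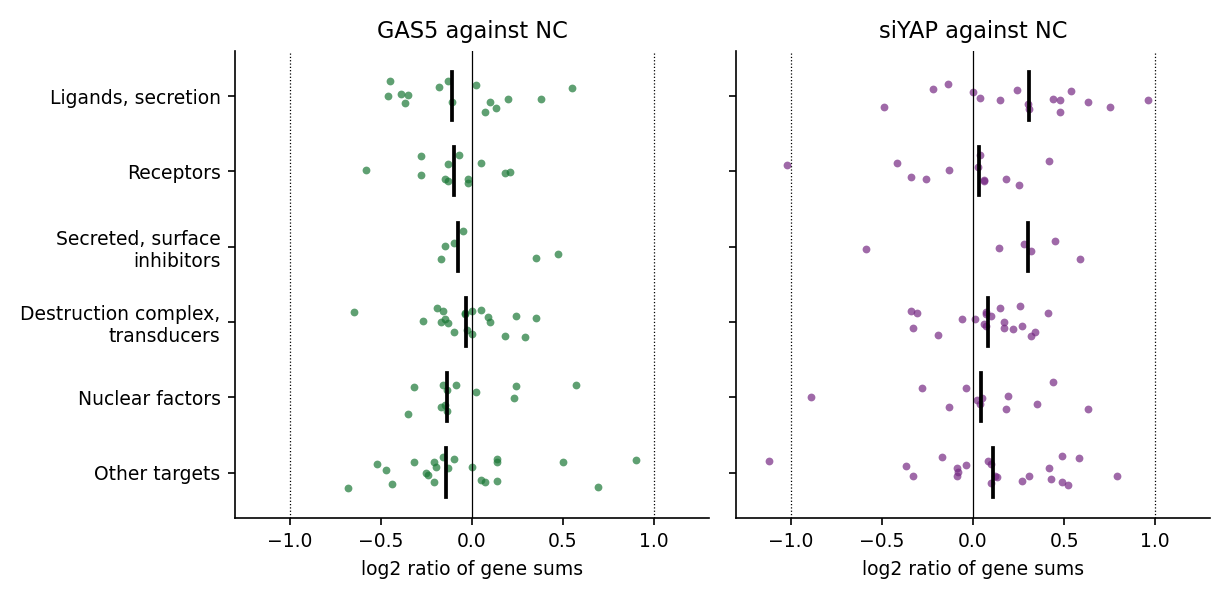
Log2 ratio of gene sums against NC for the listed pathway genes that passed the low-count filter, by role, in GAS5 (left) and siYAP (right). Each point is a gene, thick bars are medians and dotted lines mark 2-fold, and no error is drawn. The 2 points beyond the left dotted line in siYAP are LGR6 and TNFRSF19.

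LGR6, a receptor related to LGR5, had mean counts of 31.0 in NC, 18.5 in GAS5 and 13.5 in siYAP, a log2 ratio of -1.02 in siYAP (-1.82 to -0.44). TNFRSF19, a Wnt-responsive receptor of the TNF family also called TROY, had 62.5, 48.0 and 26.0, at -1.12 in siYAP (-1.68 to -0.70). Both lie below 1 FPKM in every group. In GAS5, where no listed gene was past 2-fold, the highest ratios at 50 or more mean counts in NC were those of the cell cycle phosphatase CDC25A (0.69, from 598 to 888 mean counts) and the telomerase gene TERT (0.50, from 131 to 172). The lowest were those of the angiogenic factor VEGFA (-0.52, from 2739 to 1755) and the BMP co-receptor RGMB (-0.47, from 978 to 650).

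A pair of genes picked after their values were seen were high in level. DKK1, a secreted inhibitor of LRP receptors, had mean counts of 3400 in NC, 4336 in GAS5 and 4822 in siYAP, at log2 ratios of 0.47 (0.42 to 0.52) and 0.59 (0.54 to 0.63). CCND1, the gene of cyclin D1, had 15675, 15176 and 21241, at 0.07 in GAS5 (0.05 to 0.09) and 0.52 in siYAP (0.50 to 0.54). CCND1 and MYC were thus both higher in siYAP than in NC and near NC in GAS5.

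A list of 12 interferon genes was read beside these values, because earlier results of these same data had shown it high in GAS5. Its height there therefore follows from how it was chosen. In GAS5 all 12 were past 2-fold higher, where 3.09% of all genes were past 2-fold in either direction. Their median log2 ratio was 2.75, with a range from 1.55 to 4.93. In siYAP 11 were tested and 0 were past 2-fold, with a median of -0.14. Their part in the GAS5 values of the Wnt genes was not tested.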

How the data were processed

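The authors made strand-specific libraries of HCT116 RNA, 2 per group and 6 in all. Per the labels, reads were aligned with TopHat2 2.1.1. The counting tool, genome build and annotation were not given in the sources used here. The deposited expected counts are estimated counts per transcript, averaged by the authors over a group. Of doubled gene sums 89.3% were whole within 0.05, but of doubled values of single transcripts only 18.3% were. Counting intervals of single transcripts thus rest on estimates rounded to whole counts. The deposited FPKM values are per length and library size, averaged likewise, with 0 written as 0.001 (read here as 0). Columns of the authors' own log2 fold change, p-value and FDR were not used.

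Tables were joined by transcript identifier and summed by symbol. TMM factors and the filterByExpr filter (minimum count 10) came from edgeR 4.0.16 in R 4.3.3, on group means. Log2 ratios used a prior count of 2, and other steps Python 3.11.15. Exons came from GENCODE 29, which held 99.9% of the Ensembl identifiers. The edgeR test that counts call for needs libraries and was not run, so no p is given. The ratio and interval steps were tested on simulated gene counts of at least 50 in NC, drawn without spread between libraries. Transcript estimates, TMM scaling and the filter were not tested in this way.

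Members, lists and thresholds were chosen with earlier results of these data known. Transcripts are named if they have at least 10 mean counts and 10% of their gene's counts in some group, or are past 2-fold with at least 50 mean counts in some group. From the pathway list, genes past 2-fold are named, or, in a comparison with none, the 2 highest and 2 lowest with at least 50 mean counts in NC. The exons shown were chosen after values were seen. One sequence is not reported here. Alternatives were DESeq2 1.42.0 size factors, total counts, no filter, a prior count of 0.5, FPKM ratios, and other choices of transcripts.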

Additional observations from a re-analysis of the deposited data

How the results depend on the processing

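No paired analysis was possible because each deposited column is a group mean without its libraries. Leaving out each replicate, the replicate block and the edgeR and DESeq2 tests were therefore not run. Of 98 values of summary results under these alternatives, 76 kept within their limits and 22 moved, 1 of them (the siYAP member median) to the other sign. With Ensembl transcripts only, the member median was -0.22 in GAS5 and 0.05 in siYAP, with 1 member past 0.5 in each (AXIN2, at -0.68 and -0.69). Pathway genes past 2-fold were then 4 of 86 in GAS5 (4.65%, all genes 4.48%) and 5 of 87 in siYAP (5.75%, all genes 4.06%), and 14 of 86 passed 0.5 in GAS5 (16.3%, all genes 14.7%). With only the most abundant NC transcript of each gene, the member median was -0.28 in GAS5 and -0.06 in siYAP, with 1 member past 0.5 and past 2-fold in each (AXIN2, at -2.89 and -1.84). Pathway genes past 2-fold in GAS5 were 1 of 101 with no filter, 1 of 87 with a prior count of 0.5 or FPKM ratios, and 1 of 83 with 10 or more mean counts required in all 3 groups, where 2.04% to 5.87% of all genes were. In siYAP they were 4 of 88 with a prior count of 0.5 (4.55%, all genes 2.65%). With no filter, 16 of 101 pathway genes passed 0.5 in GAS5 (15.8%, all genes 18.2%) and 22 of 58 member transcripts were past 2-fold in siYAP (37.9%, all transcripts 26.7%). With 10 or more mean counts required in all 3 groups, 6 of 36 member transcripts were past 2-fold in GAS5 and 9 of 36 in siYAP (all transcripts 9.62% and 10.4%). AXIN2 in both comparisons and ZNRF3 in GAS5 (-0.02 to 0.04) changed sign under some alternative that summed over transcripts, and the other members kept theirs. The most abundant TCF7 transcript also turned the siYAP sign, to -0.15. For AXIN2 the step that turned the sign is the loss of TCONS_00063801, without which its sum gave -0.67 in GAS5 and -0.69 in siYAP (chosen after seeing the data). Depth limits ASCL2 in every group, and LGR5 in GAS5 and siYAP, to the upper bounds given with them. The spread between cultures is unknown for every value.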
